A study of Mus musculus with 2 samples.

Results

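Among the barcodes of periosteal cells collected after a tibial fracture, 447 of 14463 were selected for their summed transcripts of the granule enzymes Elane, Prtn3, Mpo and Ctsg. They held little or no EGFP, the label of the mesenchymal lineage. They were chosen from the day-3 library by measured values. A barcode needed 500 genes, 1000 UMIs and at most 10% mitochondrial UMIs. It also needed at least 3 UMIs and at least 10 UMIs per 10000 over the 4 genes together, and fewer than 3 UMIs of EGFP per 10000. A UMI is a molecular tag that counts 1 captured transcript, and the values per 10000 are shares of a cell's own UMIs. These 447 cells, called precursors here, were 3.09% of the filtered day-3 barcodes (95% Clopper-Pearson interval 2.81 to 3.39). The same thresholds selected 4 of 4431 barcodes in the library from uninjured mice, or 0.0903% (0.0246 to 0.231). Each condition had 1 library, so this difference has no replicate check, and intervals throughout cover counting error only.

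The day-3 library came from Prx1Cre;mTmG mice at day 3 after tibial fracture, and the other from uninjured Prx1Cre;mTmG mice. Cre in these mice is driven by Prx1, a gene of the limb mesenchyme, and the mTmG allele replaces membrane tdTomato with membrane EGFP where Cre has acted. The labels call the source Prx1-derived cells, yet all live cells were used, and the precursors lack EGFP by definition. The protocols describe periosteal explants cultured with serum and bFGF until nearly confluent, whereas the series' design text says that no expansion took place. Whether the sequenced cells had been cultured, and for how long, is not settled by the sources used here. Sex genes show that the library pooled mice of both sexes: 363 precursors had Xist UMIs and no UMI of 4 Y-linked genes, and 32 had the reverse. Another 21 had both and 31 had neither.

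Elane (neutrophil elastase), Prtn3 (proteinase 3) and Ctsg (cathepsin G) are serine proteases, and Mpo is myeloperoxidase, which makes hypochlorous acid. All are proteins of azurophil granules, the first granules that a developing neutrophil fills. Their transcripts peak in the granulocyte-monocyte progenitors and promyelocytes of bone marrow and are shut off as specific and then gelatinase granules form, so that a mature neutrophil holds the proteins with little of the mRNA. Early monocyte-lineage cells also transcribe some of these genes.

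The precursors were set against 437 neutrophils of the same library, chosen as cells with at least 500 UMIs of S100a8 and S100a9 per 10000 and fewer than 10 per 10000 of the 4 enzyme genes. They were also set against 96 monocytes, chosen by Ly6c2 and Ccr2, with the same upper limit on the 4 genes, S100a8 and S100a9 below 500 per 10000 and EGFP below 3 per 10000. Median depth was 9821 UMIs in precursors, 2764 in neutrophils and 5982 in monocytes, and the median numbers of genes were 2885, 897 and 2122. The 4953 cells with EGFP at 3 per 10000 or more, at a median of 29226 UMIs, are shown for comparison as a class in which these genes should be low. They include 48 of the neutrophils and 32 barcodes that met the thresholds on the 4 genes, so their levels are not of free RNA alone. Only 3 barcodes occurred in both libraries. Summed over the cells of a class, UMIs are given as CPM, that is per 1000000 UMIs of that class, from 5198273 UMIs in precursors, 1918368 in neutrophils and 712198 in monocytes.

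The promoters of the 4 selecting genes are shown because the cells were defined by them, and because 3 of them share a motif. Each line is the 250 bases before the RefSeq start of the gene on its own strand (GRCm38.p6), with the 8-base motif GAGGAAGT of the myeloid factor PU.1 in capitals.
Prtn3: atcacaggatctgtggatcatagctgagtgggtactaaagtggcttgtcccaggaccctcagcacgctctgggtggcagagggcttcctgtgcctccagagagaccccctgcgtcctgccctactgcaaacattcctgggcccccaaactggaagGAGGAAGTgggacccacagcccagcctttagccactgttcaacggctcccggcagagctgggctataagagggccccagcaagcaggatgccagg
Elane: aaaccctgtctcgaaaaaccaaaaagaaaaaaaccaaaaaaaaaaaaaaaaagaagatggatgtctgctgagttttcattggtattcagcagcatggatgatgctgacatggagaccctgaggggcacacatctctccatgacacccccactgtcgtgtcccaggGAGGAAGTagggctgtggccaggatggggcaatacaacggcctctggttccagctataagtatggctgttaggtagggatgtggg
Mpo: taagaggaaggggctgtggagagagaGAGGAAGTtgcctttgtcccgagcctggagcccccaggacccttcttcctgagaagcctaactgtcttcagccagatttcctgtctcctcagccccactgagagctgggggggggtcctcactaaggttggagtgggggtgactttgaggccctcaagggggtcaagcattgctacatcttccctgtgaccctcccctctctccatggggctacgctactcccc
Ctsg: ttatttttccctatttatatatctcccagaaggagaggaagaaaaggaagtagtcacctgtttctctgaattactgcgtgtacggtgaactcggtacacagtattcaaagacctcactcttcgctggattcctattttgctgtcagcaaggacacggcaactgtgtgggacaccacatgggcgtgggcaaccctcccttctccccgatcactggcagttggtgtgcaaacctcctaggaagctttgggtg

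The windows are chr10:79879417-79879666 on the plus strand for Prtn3, chr10:79886062-79886311 on the plus strand for Elane, chr11:87793534-87793783 on the plus strand for Mpo and chr14:56102575-56102824 on the minus strand for Ctsg. Prtn3 and Elane are neighbours on chromosome 10, where the mm10 annotation places Prtn3 at 79874476 to 79883174 and Elane at 79886247 to 79888215. It places Mpo at 87793581 to 87804413 on chromosome 11. These gene models begin upstream of the RefSeq starts, so all of the Prtn3 window, most of the Mpo window and the end of the Elane window lie inside them, and distances below are from the RefSeq start. Searched on both strands from 250 bases before to 50 after the start, GAGGAAGT first matched 95 bases before the start of Prtn3, 85 before Elane and 224 before Mpo, all on the gene's own strand. It had no match in the window of Ctsg. The motif occurred in 1052 of 32851 such promoters, or 3.20%. Its shorter core GAGGAA, contained in GAGGAAGT, was found for all 4 genes and in 28.3% of promoters. The MYB motif AACNGNC was found for Elane, Mpo and Ctsg (32.8% of promoters), and the C/EBP motif TTNNGNAA for none of the 4 (40.7%). The narrower AACTGNC, contained in AACNGNC, was found for Mpo and Ctsg (12.8%), and a second C/EBP motif, TTGCNNAA, for none (10.8%). TGTGGT, a RUNX motif, matched in Ctsg alone of the 4 genes and in 16.8% of promoters. A match is only a run of letters, and no binding was measured.

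Prtn3 was the most abundant and the most widely detected of the 4 genes. As a description of the selection, Prtn3 was at 4379.7 CPM in precursors, 134 in neutrophils, 414 in monocytes and 18.8 in EGFP-rich cells. Elane was at 1661 CPM in precursors, 38.1 in neutrophils, 12.6 in monocytes and 7.23 in EGFP-rich cells. Mpo was at 1232 CPM in precursors, 2.09 in neutrophils, 1.40 in monocytes and 4.68 in EGFP-rich cells. Ctsg was at 999.9 CPM in precursors, 9.90 in neutrophils, 2.81 in monocytes and 4.31 in EGFP-rich cells. Monocytes thus held some Prtn3 with hardly any Mpo or Ctsg: 75 of 96 had a Prtn3 UMI and 1 had a Mpo UMI.

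**Figure D1:**
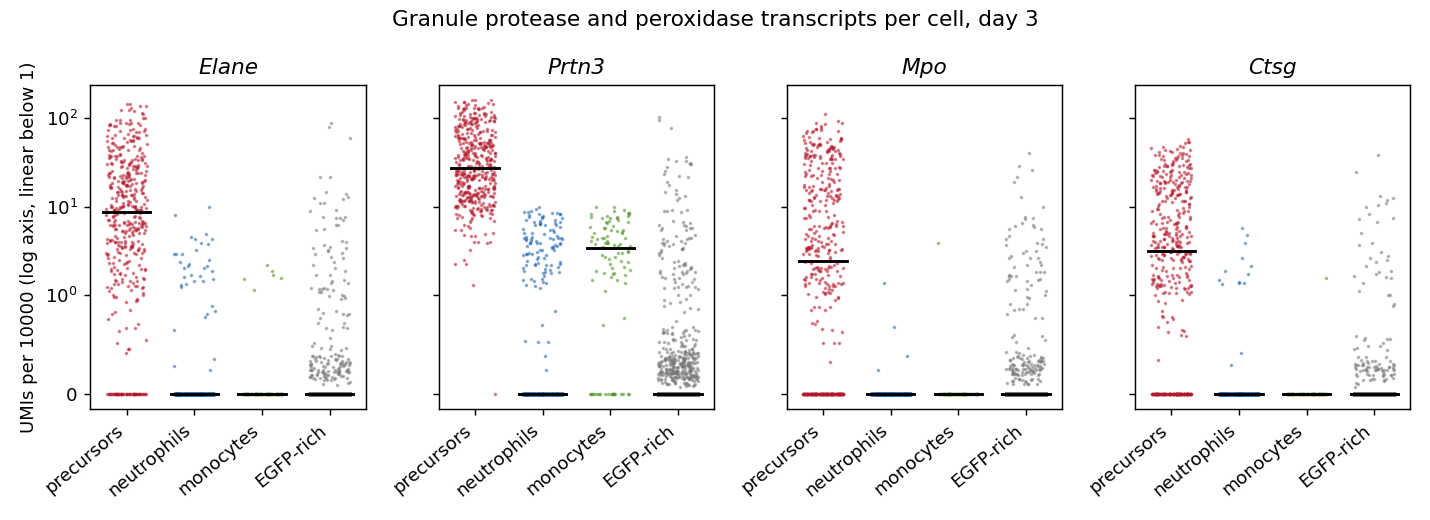
UMIs per 10000 of Elane, Prtn3, Mpo and Ctsg in each cell of 4 classes of the day-3 library (1 point per cell, black line at the median, log axis that is linear below 1). Prtn3 has the highest median in precursors, 27.5 per 10000, while the Mpo median is 2.46 and many precursors lie at 0 for Mpo; the classes were cut on these values.

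The 4 enzymes were not always present together. All 4 were detected in 248 precursors (55.5%), 3 in 94, 2 in 84 and a single one in 21, and that single gene was Prtn3 each time. Prtn3 UMIs were found in 446 of the 447 cells, Elane in 394, Ctsg in 326 and Mpo in 297. Prtn3 had the most UMIs of the 4 in 379 cells, Elane in 50, Mpo in 17 and Ctsg in 1. The next most frequent combinations after all 4 were Elane with Prtn3 alone (62 cells) and Elane, Prtn3 and Ctsg without Mpo (46 cells). Thinned to 2000 UMIs per cell, Prtn3 was detected in 95.7% of precursors and 1.61% of EGFP-rich cells, and Mpo in 221 of 442 precursors and 0.667% of EGFP-rich cells.

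Summed over the 4 genes, a precursor held between 10.0 and 386 UMIs per 10000, with a median of 48.7. The threshold cuts a continuous range: 45 barcodes lay just outside it at 8 to 10 per 10000 and 30 just inside it at 10 to 12. Those just inside had 878 CPM of Prtn3, 127 of Elane and 13.6 of Mpo, and those just outside 781 of Prtn3, 65.5 of Elane and 9.71 of Mpo. Ms4a3, a membrane protein of granulocyte-monocyte progenitors that the selection did not use, was at 65.5 CPM in the 45 just outside, 159 in the 30 just inside, 139.6 in the 31 at 12 to 15 per 10000, 104 in the 55 at 15 to 20, 232 in the 113 at 20 to 50, 453 in the 81 at 50 to 100 and 1121 in the 137 at 100 or more. It was thus higher at the top of the range, with no steady order below 20.

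The 4 barcodes of the uninjured library ranged from 4318 to 24445 UMIs and held 11, 49, 63 and 11 UMIs of Elane, beside 3, 26, 29 and 1 UMIs of Mpo. All 4 also had Ms4a3 UMIs, between 4 and 16. They were too few to be compared further.

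A handful of genes outside the selection were almost as concentrated in these cells as the selecting genes. The precursors gave 2.34% of all day-3 UMIs in the filtered barcodes. By comparison they held 88.9% of the library's Mpo UMIs and 84.6% of its Prtn3 UMIs, which the selection fixed. They also held 81.9% of Ms4a3, 80.8% of Myl10 (a myosin regulatory light chain), 78.5% of Kit (the stem cell factor receptor) and 78.0% of Nkg7 (a granule membrane protein of cytotoxic lymphocytes). Myb, a transcription factor of immature blood cells, had 69.2% of its UMIs in precursors, Prss57, another azurophil serine protease, 67.9%, and Ly6c2 66.3%. Their spread over cells differed. Ms4a3 was detected in 75.8% of precursors and Myb in 43.8%, whereas Kit was detected in 22.8%, Myl10 in 20.1% and Nkg7 in 17.0%.

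Against neutrophils, the precursors had higher levels of monocyte-lineage, progenitor and growth genes and far lower levels of the later granule genes. Of 3134 genes with at least 50 CPM in the higher class, 731 were at least 2-fold higher in precursors (23.3%) and 251 at least 2-fold lower (8.01%), leaving out the genes that defined the classes. S100a8 and S100a9 made up 23.0% of neutrophil UMIs and 4.67% of precursor UMIs, so the scaling matters. TMM factors, which scale on the middle of the genes, moved every log2 ratio by -0.22 and gave 432 higher and 385 lower. Leaving the selecting genes out of the totals moved them by -0.30 and gave 386 higher and 478 lower, so whether more genes are higher or lower depends on the scaling. The higher count was 335 among cells with 4000 UMIs or more (421 precursors and 138 neutrophils), 263 without precursors holding 3 or more mitotic UMIs, 1159 without the highest doublet scores and 1517 against neutrophils selected more strictly. The 24 genes named below stayed past 2-fold in the same direction under each of these settings.

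The 12 highest ratios came from genes of several functions. Gria3, a glutamate receptor subunit, was at 71.0 CPM in precursors and 1.56 in neutrophils, 45.4-fold higher (95% interval 15.4 to 221, from 3 neutrophil UMIs). Cst7, which encodes cystatin F, an inhibitor of cathepsin C, was at 96.4 CPM in precursors and 5.73 in neutrophils, 16.8-fold higher (9.31 to 33.9). Ccr2, the chemokine receptor through which monocytes leave marrow, was 13.1-fold higher (10.3 to 17.0). Plac8 was 10.6-fold higher (9.60 to 11.7) and present in 97.3% of precursors. Srgn, the serglycin core protein on which granule proteases are packed, was at 764 CPM in precursors and 103 in neutrophils, 7.44-fold higher (6.44 to 8.62). The other 7 were Itga1 (a collagen-binding integrin chain, 9.02-fold), Nrg1 (an epidermal growth factor family ligand, 8.89-fold), Gpatch4 (8.43-fold), Mogs (the glucosidase that starts N-glycan trimming, 8.17-fold), Rrp15 (a ribosome assembly factor, 7.68-fold), Tmem97 (7.49-fold) and C1galt1c1 (a chaperone of O-glycan synthesis, 6.97-fold).

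The lowest ratios were those of genes of later neutrophil stages. Ltf, the lactoferrin of specific granules, was at 33.9 CPM in precursors and 3861 in neutrophils, a ratio of 0.00877 (0.00751 to 0.0102). Retnlg, a resistin-like gene of mature neutrophils, was at 16.2 CPM in precursors and 1687 in neutrophils. Ceacam10 had 2 UMIs in precursors and 126 in neutrophils. The stefins, inhibitors of cysteine proteases, followed with 4.42 CPM of Stfa2 in precursors and 401 in neutrophils, 10.97 CPM of Stfa3 in precursors and 345 in neutrophils, and 15.6 CPM of Stfa2l1 in precursors and 402 in neutrophils. The stefins are near-identical copies, so reads may be split among them. Olfm4, the glucose transporter gene Slc2a3, Itgb2l, the surface gene Cd177, the formyl peptide receptor gene Fpr2 and Mxd1, a MYC antagonist, had ratios between 0.0561 and 0.0795.

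Granule genes divided by the stage at which their granule forms. Gene lists were read at 10 CPM or more in the higher class, where 20.6% of 7999 genes were at least 2-fold higher in precursors and 8.18% at least 2-fold lower, with a median log2 ratio of 0.36. Of 11 further azurophil proteins and partners, 4 were higher and 0 lower, with a median log2 ratio of 0.78. With TMM factors the list had 4 and 3, beside 432 higher and 385 lower of all genes at 50 CPM. The higher ones of the azurophil list were Cst7, Srgn, Ms4a3 (5.03-fold, 4.35 to 5.84) and Ctsc (4.57-fold, 3.92 to 5.35), the cathepsin C that activates the granule proteases. Lyz2 (lysozyme) and Serpinb1a, an inhibitor of these proteases, had the lowest log2 ratios of the list, -0.95 and -0.94. Of 12 specific granule genes, 0 were higher and 11 lower, with a median of -3.45. Among them, cathelicidin (Camp) was at 685 CPM in precursors and 8002 in neutrophils, and Ngp at 2253 CPM in precursors and 26141 in neutrophils. The exception was Hp, haptoglobin, at 580.4 CPM in precursors and 405 in neutrophils. Of 19 gelatinase granule and late genes, 0 were higher and 15 lower, with a median of -2.32, and Il1b, the interleukin-1 beta gene, was at 0.962 CPM in precursors and 39.6 in neutrophils. In cells with 4000 UMIs or more 9 of the late genes were lower, with a median of -1.06. Over all genes at 50 CPM the lower count there was 198, against 251 in all cells. Of the 6 NADPH oxidase subunits, which form the superoxide-producing complex, 2 were lower: Cybb at 324 CPM in precursors and 1243 in neutrophils, and Ncf1 at 214 CPM in precursors and 634 in neutrophils.

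Progenitor genes were mostly higher, depending on which precursors were compared. Of 12 progenitor genes, 7 were higher and 2 lower, with a median log2 ratio of 1.54. In the 153 precursors with 500 or more UMIs of S100a8 and S100a9 per 10000 the median was -0.020, with 4 higher and 1 lower, and the log2 ratio of Cd34 was -0.28. Over all genes at 50 CPM, 3.99% were higher and 7.01% lower in those cells. In the cells with Y-linked UMIs and no Xist (32 precursors and 15 neutrophils) the median was -0.12, with 2 higher and 3 lower. There, 773 of all genes at 50 CPM were higher and 592 lower, a stricter minimum than the 10 CPM of the list. Over all precursors, Cd34, a surface sialomucin of progenitors, was at 26.9 CPM in precursors and 4.17 in neutrophils (6.46-fold, 3.19 to 15.3). Myb was at 89.8 CPM in precursors and 28.7 in neutrophils (3.13-fold, 2.37 to 4.22). Kit was at 29.4 CPM in precursors and 10.9 in neutrophils (2.69-fold, 1.70 to 4.47), and Cdk6, a kinase of the early cell cycle, at 193 CPM in precursors and 55.3 in neutrophils (3.49-fold, 2.86 to 4.31). Egfl7 had 92 UMIs in precursors and 1 in neutrophils. Hmga2 and Prom1 were lower. Hmga2 is abundant elsewhere in this library, 52 of its 178 precursor UMIs were in 1 cell, and its ratio turned with the EGFP limit.

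Transcription factors of both branches of the lineage were detected. Of 19 such genes, 4 were higher and 1 lower, with a median log2 ratio of 0.42. Over all genes 20.6% were higher and 8.18% lower, with a median of 0.36, so the list was close to all genes. Irf8, a factor of the monocyte branch, was at 153 CPM in precursors and 39.1 in neutrophils (log2 ratio 1.96), and Klf4, another, at 71.4 CPM in precursors and 24.5 in neutrophils (2.91-fold, 2.15 to 4.03). Cebpa, needed to form granulocyte-monocyte progenitors, was at 42.9 CPM in precursors and 16.7 in neutrophils (2.57-fold, 1.77 to 3.85). Cebpe, which drives specific granule genes, was at 59.6 CPM in precursors and 320.1 in neutrophils, the 1 gene that was lower. Spi1, which encodes PU.1, was at 383 CPM in precursors and 405 in neutrophils, with a ratio whose interval includes 1 (0.871 to 1.03). Gfi1, a transcriptional repressor that acts in favour of the granulocyte branch, was at 19.8 CPM in precursors and 23.5 in neutrophils.

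Among 22 receptors, 1 was higher and 3 lower, with a median log2 ratio of -0.26. The higher one was Ccr2, at 458 CPM in precursors and 34.9 in neutrophils. Itgam and Itgb2, the chains of the Mac-1 integrin, were at 155 and 110.0 CPM in precursors and at 445 and 310.2 CPM in neutrophils. The G-CSF receptor gene Csf3r, counted among the late genes, was at 33.7 CPM in precursors and 132 in neutrophils, and the M-CSF receptor gene Csf1r at 118 CPM in precursors and 112 in neutrophils. Of 17 monocyte genes, 9 were higher and 1 lower, with a median log2 ratio of 1.54. With TMM factors, 432 of all genes at 50 CPM were higher and 385 lower. Under them 18 monocyte genes reached 10 CPM, 9 were higher and 1 lower, and the median was 0.83. In the 153 precursors with high S100a8 and S100a9, 7 were higher and 4 lower (median 0.16), where 3.99% of all genes at 50 CPM were higher and 7.01% lower. Ms4a4c was at 36.7 CPM in precursors and 4.17 in neutrophils, while Cd14, the lipopolysaccharide co-receptor, was at 19.4 CPM in precursors and 45.4 in neutrophils.

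Genes for building ribosomes, secretory proteins and DNA were higher in most of their listed members. All 20 ribosome biogenesis genes were at least 2-fold higher in precursors than in neutrophils, with a median log2 ratio of 1.80. Gar1, of the pseudouridylation complex, was at 86.6 CPM in precursors and 13.6 in neutrophils, and Pes1 at 66.0 CPM in precursors and 30.8 in neutrophils. Of 20 endoplasmic reticulum folding genes, 14 were higher and 0 lower (median 1.22). Sdf2l1 was at 215 CPM in precursors and 34.4 in neutrophils, and Spcs1, a signal peptidase subunit, at 176 CPM in precursors and 132 in neutrophils. Of 20 DNA replication genes, 19 were higher and 0 lower (median 1.54), with Cdc6, a helicase loader, at 24.0 CPM in precursors and 5.21 in neutrophils. Rrm2, a ribonucleotide reductase subunit, was the 1 that did not reach 2-fold, at 157 CPM in precursors and 97.5 in neutrophils. Of 7 haem synthesis genes, which serve the haem enzyme myeloperoxidase among others, 3 were higher (median 0.67), with Alad at 20.2 CPM in precursors and 6.26 in neutrophils. Of 4 interferon-response genes with enough UMIs, 1 was higher and 1 lower. TMM factors moved every log2 ratio to neutrophils by -0.22, and totals without the selecting genes by -0.30. Counts and medians near 2-fold in these lists thus depend on the scaling. Depth and mitotic cells also moved with these groups of genes. In cells with 4000 UMIs or more, 16 ribosome biogenesis, 9 replication and 8 endoplasmic reticulum genes were higher. Over all genes at 50 CPM the higher count fell there too, from 731 to 335. Leaving out the precursors holding 3 or more mitotic UMIs left 75. Then 0 ribosome biogenesis, 8 replication and 11 endoplasmic reticulum genes were at least 2-fold higher, with medians of 0.41, 0.76 and 1.07. Over all genes at 50 CPM the higher count was then 263. The cut was on unthinned UMIs, which shallow cells pass more easily, and on precursors only. All 437 neutrophils stayed, 29.5% of them with 3 or more mitotic UMIs. The part of this uneven filter in the lower counts was not tested. Among the 153 precursors with 500 or more UMIs of S100a8 and S100a9 per 10000, 0 ribosome biogenesis, 13 replication and 2 endoplasmic reticulum genes were higher than in neutrophils. Their medians were 0.35, 1.13 and 0.33. Over all genes at 50 CPM, 3.99% were higher in those 153 cells.

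**Figure D2:**
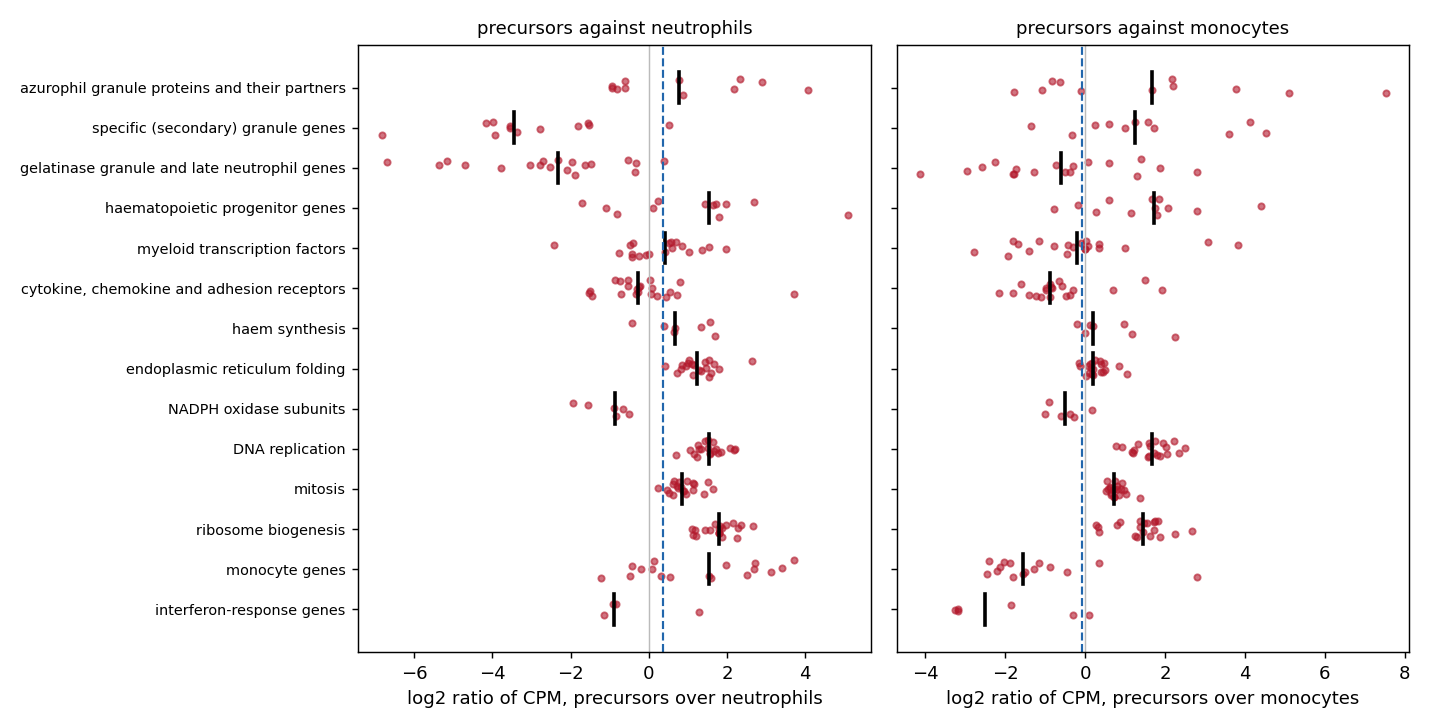
Log2 ratio of CPM for each gene of 14 lists, precursors over neutrophils on the left and precursors over monocytes on the right (1 point per gene, black bar at the list median, blue dashed line at the median of all genes, 0.36 and -0.06). Ribosome biogenesis and DNA replication lie right of both lines in both panels, while specific granule genes have medians of -3.45 against neutrophils and 1.24 against monocytes.

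Mitotic genes were widely detected in precursors. A cell was counted here if it had at least 3 UMIs over 20 mitosis genes after thinning to 2000 UMIs. By that measure 64.0% of precursors were positive (59.4 to 68.5, 283 of 442), against 31.5% of neutrophils (26.6 to 36.7, 109 of 346), 21.9% of monocytes (14.1 to 31.5, 21 of 96) and 29.2% of EGFP-rich cells (27.9 to 30.5). Thinning left out 5 precursors and 91 neutrophils, and the unthinned shares were 83.2% of precursors, 29.5% of neutrophils and 28.1% of monocytes. Free RNA is included in each share. S100a8 and S100a9 made up 23.0% of neutrophil UMIs and 4.67% of precursor UMIs, so equal totals left neutrophils fewer UMIs of other genes. The part of this in the shares was not tested. The difference from neutrophils depended on which neutrophils were kept. At 1000 UMIs, with every cell used, the shares were 45.2% of precursors and 19.5% of neutrophils. At 4000 UMIs they were 77.9% of precursors and 77.5% of neutrophils, where only 138 of the 437 neutrophils were deep enough to count, and 30.5% of monocytes. By 20 DNA replication genes at 4000 UMIs, 81.0% of precursors, 58.7% of neutrophils and 23.2% of monocytes were positive.

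**Figure D3:**
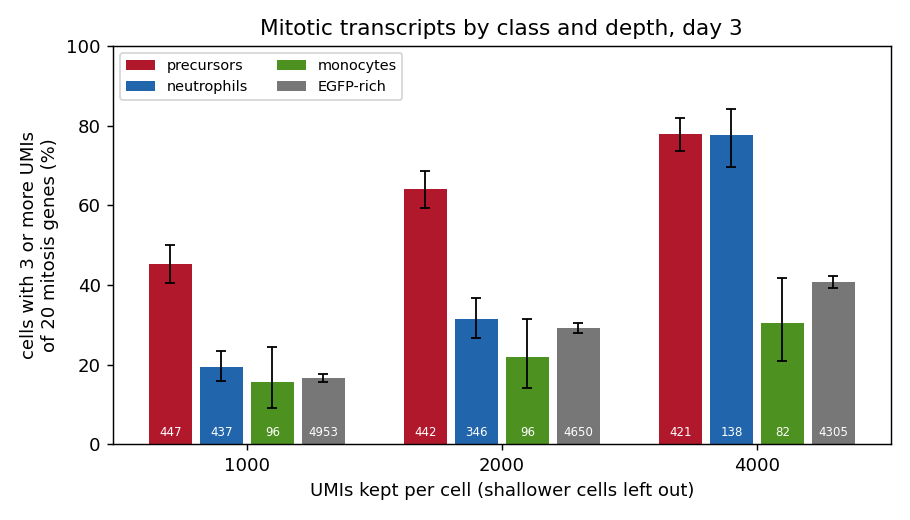
Share of cells with at least 3 UMIs of 20 mitosis genes, after thinning to 1000, 2000 or 4000 UMIs, in 4 classes of the day-3 library (bars from 0, error bars 95% Clopper-Pearson intervals, white figures the cells used). Precursors are above monocytes at each depth, and above neutrophils at 1000 and 2000 UMIs but not at 4000, where 77.9% of precursors and 77.5% of neutrophils are positive.

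Per gene, the mitosis list differed less from neutrophils than the replication list. Of 20 mitosis genes, 6 were higher and 0 lower, with a median log2 ratio of 0.85; in cells with 4000 UMIs or more 0 were higher and 0 lower (0.29). Bub1, a spindle checkpoint kinase, was at 41.0 CPM in precursors and 13.03 in neutrophils, and Cenpf, a kinetochore protein, at 168 CPM in precursors and 142 in neutrophils.

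Against monocytes, lower genes outnumbered higher ones, which turned with the scaling. Of 3366 genes at 50 CPM or more, 271 were at least 2-fold higher in precursors (8.05%) and 351 at least 2-fold lower (10.4%). TMM factors moved the log2 ratios by 0.13 and gave 350 higher and 268 lower. The monocyte sums rest on 96 cells. Without precursors holding 3 or more mitotic UMIs, the higher count was 102, and ribosome biogenesis genes then had 0 higher and replication genes 8. That filter again left all 96 monocytes in, 28.1% of them with 3 or more such UMIs.

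The 6 genes highest against monocytes were Ms4a3, Camp, Myb, Pglyrp1, Rgcc and Serpinb1a. Ms4a3 was at 519 CPM in precursors and 2.81 in monocytes, 185-fold higher with an interval of 51.2 to 1528 from 2 monocyte UMIs. Myb had 467 UMIs in precursors and 0 in monocytes, which makes it at least 21.3-fold higher when 3 monocyte UMIs are allowed. Camp was at 685 CPM in precursors and 29.5 in monocytes, but in precursors it was found in only 17.2% of cells, and 10 cells held 68.4% of its UMIs. In the 294 precursors below 500 per 10000 of S100a8 and S100a9 its log2 ratio to monocytes was -1.89. Pglyrp1, a peptidoglycan recognition protein of specific granules, was 17.4-fold higher (9.43 to 36.4), Rgcc, a cell cycle regulator, 15.5-fold (7.10 to 42.5) and Serpinb1a 13.7-fold (8.13 to 25.1). The genes with the lowest ratios were Saa3, an acute-phase protein, at 17.5 CPM in precursors and 339.8 in monocytes, Pla2g7, Ifi204, Dpep2 and Fpr2. Apoe, a lipid carrier of macrophages, was at 391 CPM in precursors and 3512 in monocytes.

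The same lists gave a different picture against monocytes, where at 10 CPM 9.59% of 8110 genes were higher, 11% lower, and the median log2 ratio was -0.06. Progenitor genes were 8 higher and 0 lower of 12, azurophil genes 6 and 2 of 11, and specific granule genes 6 and 1 of 11. That last count rested on precursors with much S100a8 and S100a9: in the 294 below 500 per 10000, 1 specific granule gene was higher than in monocytes and 4 lower, with a median log2 ratio of -0.46, and in the 153 at 500 or more 10 were higher and 1 lower, with a median of 3.03. Over all genes at 50 CPM, 348 were higher and 341 lower in the 294, and 201 and 631 in the 153. Replication genes were 18 higher and 0 lower of 20 (median 1.67), ribosome biogenesis genes 15 and 0 of 20 (1.46, and 0 and 1 in the 153 precursors with high S100a8 and S100a9) and mitosis genes 2 and 0 of 20 (0.72). Endoplasmic reticulum genes had 1 higher of 20, Manf, at 346 CPM in precursors and 167 in monocytes, and a median of 0.19. Monocyte genes were 1 higher and 11 lower of 15, Ly6c2 and Ccr2 being left out as selecting genes. The 1 higher was Plac8, at 2222 CPM in precursors and 317 in monocytes, and Fn1, fibronectin, was at 260 CPM in precursors and 1370.4 in monocytes. Interferon-response genes were 0 higher and 4 lower of 6, with Irf7 at 1.92 CPM in precursors and 18.3 in monocytes. Transcription factors were 2 higher and 6 lower of 20. The higher ones were Gfi1, with 103 UMIs in precursors and 1 in monocytes, and Cebpe. Cebpe was at 59.6 CPM in precursors and 7.02 in monocytes. Egr1, an immediate early gene, was at 13.3 CPM in precursors and 50.5 in monocytes. Receptors were 2 higher and 6 lower of 20. Among the lower ones, Tlr2, a sensor of bacterial lipoproteins, was at 40.6 CPM in precursors and 180 in monocytes. Among late genes, 4 were higher and 8 lower of 18, and among haem genes 2 and 0 of 7. None of the 6 NADPH oxidase subunits differed 2-fold.

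Within the precursors, S100a8 and S100a9, the calprotectin genes of neutrophils and monocytes, varied widely; this split was chosen after the values were seen. The sum of both genes ran from 0 to 4405 UMIs per 10000, with a median of 159. Below 10 per 10000 there were 122 cells, between 10 and 500 there were 172, and at 500 or more there were 153, which would meet the S100 threshold of the neutrophils. Median depth was 16179, 10913.5 and 6684 UMIs in these 3 groups. The 4 selecting genes were near in total, with median sums of 41.8, 51.8 and 51.5 per 10000, but Elane was at 713, 1858 and 2929 CPM and Ctsg at 1174, 1043 and 629.8 CPM from the lowest to the highest S100 group.

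Specific granule genes stood apart most between these groups. In the 153 cells at 500 or more, Camp was at 3023 CPM, against 1.01 CPM in the 122 cells below 10, Ngp at 9630 CPM against 50.4, Chil3 at 4893 against 63.0 and Lcn2, lipocalin 2, at 3177 against 98.8. Fcnb, a ficolin counted here in the azurophil list, was at 751 CPM in the high group and 14.6 in the low group. The transcription factor gene Cebpe was at 232 and 4.54. Ltf reached 144 CPM in the high group, where 21.6% of cells had a UMI. Of 12 specific granule genes, 10 were at least 2-fold higher in the high group and 0 lower (median log2 ratio 5.43), where 6.72% of 8033 genes were higher and 21.8% lower. Other lists rose less: gelatinase and late genes were 10 higher and 3 lower of 17 (1.30). Azurophil genes were 5 and 2 of 11 (0.82), and NADPH oxidase subunits 3 and 0 of 6 (1.01).

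Early genes were mixed in this split. Of 13 progenitor genes, 2 were at least 2-fold higher in the high group and 5 lower, with a median log2 ratio of -0.49 beside -0.41 for all genes. Cd34 was at 3.43 CPM in the high S100 group and 59.5 in the low group, Ifitm1 at 78.8 and 1552, and Hpgd, a prostaglandin-degrading enzyme, at 0.857 and 86.2. All 20 ribosome biogenesis genes were at least 2-fold lower in the high group, with a median log2 ratio of -2.12, and 13 of 20 endoplasmic reticulum genes were. Npm1, nucleophosmin, was at 491 CPM in the high group and 2555 in the low group. Monocyte genes were 0 higher and 7 lower of 17: Ccr2 was at 115 CPM in the high group and 556 in the low group, and Irf8 at 67.7 and 174. F13a1, Fn1 and Vcan were highest in the middle group, at 619, 419 and 191 CPM. Not every progenitor gene followed Cd34. Kit was at 50.6 CPM in the high group and 27.7 in the low group, and Myb at 103 in both.

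**Figure D4:**
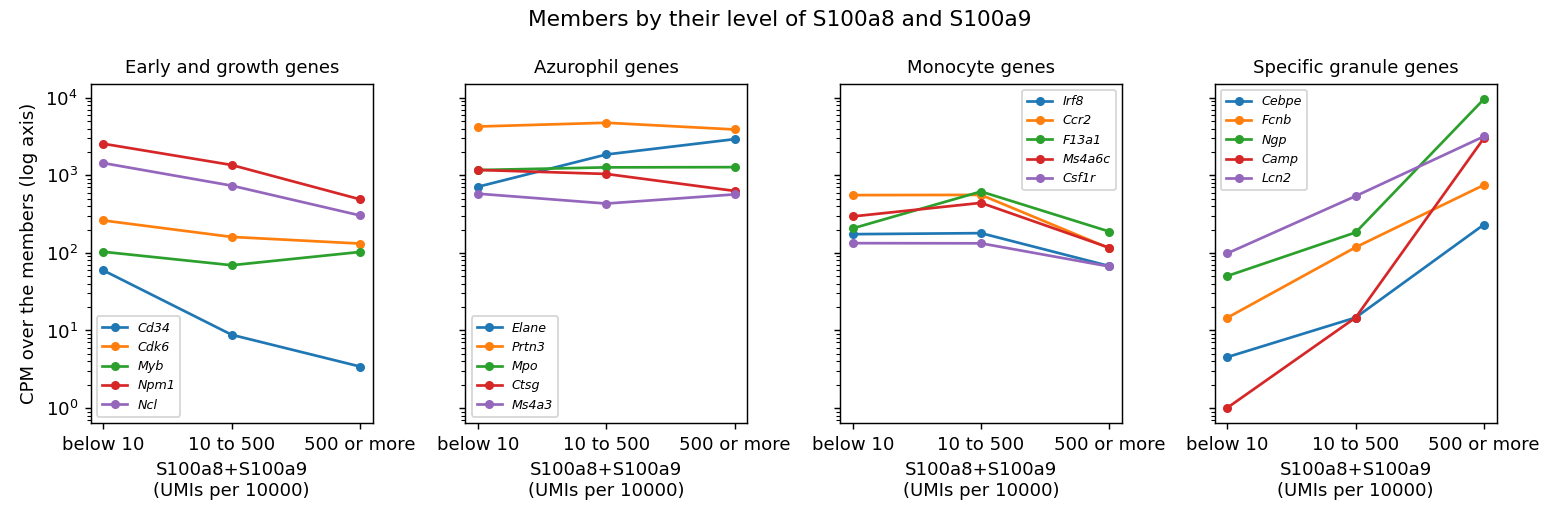
CPM of 20 genes in the precursors grouped by their sum of S100a8 and S100a9, below 10, 10 to 500 and 500 or more UMIs per 10000 (122, 172 and 153 cells, log axis, summed UMIs, no replicates). The specific granule panel also holds Cebpe, a transcription factor, and Fcnb, counted in the text as an azurophil gene. The genes of that panel climb over the groups, Camp to 3023 CPM in the highest, while Cd34 declines to 3.43 CPM and Prtn3 stays between 3905 and 4765 CPM.

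Mitotic shares were close over the 3 groups. Thinned to 2000 UMIs, 66.1% (56.8 to 74.6), 64.9% (57.3 to 72.0) and 64.1% (55.9 to 71.6) of the cells were positive from the lowest to the highest group. By replication genes the shares were 72.0% (63.0 to 79.9), 52.6% (44.9 to 60.3) and 49.7% (41.5 to 57.9).

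The groups also stood at different distances from the neutrophils. The cells at 500 or more had 107 of 2681 genes at least 2-fold higher than in neutrophils (3.99%) and 188 lower (7.01%). The middle group had 798 of 3165 higher (25.2%) and 248 lower (7.84%), and the cells below 10 had 1175 of 3340 higher (35.2%) and 374 lower (11.2%). These counts share the same neutrophils and were not tested against each other. The groups and the neutrophils were cut on the same genes, S100a8 and S100a9, so nearness of the upper group to neutrophils was partly built in. Both genes also count in the CPM totals, and median depth fell from 16179 to 6684 UMIs from the lowest to the highest group. The part of each in these counts was not tested.

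Mpo is a selecting gene, so a split by its detection follows the selecting sum and the depth, and its values are only a description. The 297 precursors with a Mpo UMI had a median depth of 11265 UMIs and a median sum of 93.5 per 10000 over the 4 genes, and the 150 without had 7632.5 UMIs and 17.8. At 10 CPM, 3.99% of 7910 genes were at least 2-fold higher with Mpo and 3.02% lower. Srgn was at 976 CPM with Mpo and 186 without, Ms4a3 at 647 and 171, Myb at 112 and 29.4, and Kit at 38.1 and 5.73. Ribosome biogenesis genes were 8 higher and 0 lower of 20. Specific granule genes were 0 higher and 9 lower of 12, with Ltf at 4.998 CPM with Mpo and 112 without, and monocyte genes 1 higher and 4 lower of 17, with Fn1 at 147 and 566. The cells without Mpo had more of both groups of genes, and were shallower.

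Summed levels of mesenchymal, erythroid and lymphoid markers were low in the precursors, while macrophage markers and Pf4 were found in many cells. Over 8 mesenchymal markers the summed level was 48.9 CPM in precursors, 206 in neutrophils, 40.7 in monocytes and 2235 in EGFP-rich cells. EGFP itself was at 23.3 CPM in precursors, with a UMI in 94 cells, and tdTomato had 11 UMIs in 11 cells. Over 8 macrophage markers the sum was 714 CPM in precursors, 1520 in neutrophils, 4468 in monocytes and 458 in EGFP-rich cells, and 25 precursors had 10 or more C1q UMIs per 10000. Over 8 neutrophil markers, which include S100a8 and S100a9, it was 46908 CPM in precursors and 233019 in neutrophils, and Ly6g, which marks mature neutrophils, was at 0.577 CPM in precursors and 37.0 in neutrophils. Of 9 erythroid markers 6 were at 0 in precursors, of 7 B lymphoid markers 4, of 7 T and natural killer markers 3, of 5 endothelial markers 3 and of 8 dendritic markers 3. In neutrophils the numbers at 0 were 8, 1, 3, 2 and 4. Of these 5 lists, 1 B lymphoid and 1 endothelial marker were in at least 10% of precursors. Cd79b was in 12.1% of precursors and 0.458% of neutrophils (13.3 and 2.61 CPM), and Pecam1 in 13.9% and 1.83% (15.4 and 4.17 CPM). Over 6 platelet markers the sum was 422 CPM in precursors and 344 in EGFP-rich cells. Most of it was from Pf4, found in 39.6% of precursors and 61.1% of EGFP-rich cells, with Gp9 at 0 in precursors.

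A few genes rested on single cells. Of 548 Prg2 UMIs in precursors, an eosinophil granule gene, 546 were in 1 cell. Osteoclast markers had a sum of 260 CPM in precursors and 734 in neutrophils, but 10 cells held 91.2% of the Acp5 UMIs and 86.5% of the Ctsk UMIs of the precursors. Among 5 of 10 mast cell and basophil markers with any UMI, the sum was 30.4 CPM in precursors and 107 in EGFP-rich cells. Of them 1 was in at least 10% of precursors: Mcpt8, in 12.5% of precursors, 2.29% of neutrophils and 35.6% of EGFP-rich cells.

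High doublet scores were found in 15.7% of precursors, 10.5% of neutrophils and 13.1% of all filtered barcodes, and in 15 of the 21 precursors with both Xist and Y-linked UMIs. The part of doublets in these values was not tested beyond leaving out those cells. Among cells assigned to one sex, 91.9% of precursors (88.8 to 94.4), 92.1% of neutrophils (87.2 to 95.5), 90.3% of monocytes (81.0 to 96.0) and 84.1% of EGFP-rich cells (83.0 to 85.3) had Xist only.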

How the data were processed

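Periosteal cells in 2 libraries, 1 at day 3 and 1 uninjured, were measured by 10x Chromium 3' sequencing. The deposited files hold counts, whole-number UMIs per gene and barcode that the authors left unnormalized, per the file headers. The submitters' processing notes list Cell Ranger, Seurat 4.0.1 and mm10. Per the file headers, software version 3.1.0 wrote the matrices. The labels give the molecule as DNA, while the values count transcripts. The step that called barcodes as cells is not stated there.

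Total depth was 227191961 UMIs over 16332 barcodes at day 3 and 94034112 over 4573 in the uninjured library. At day 3, 1412 barcodes were removed for few genes or UMIs and 457 for mitochondrial share. The precursors, lists and comparisons were chosen with earlier results of these data known. UMIs were summed per class and scaled to CPM. A ratio has an exact conditional binomial 95% interval, a share a Clopper-Pearson one. A class at 0 was given 3 UMIs, and no ratio was formed where both classes had 3 or fewer or where such a bound gave no direction, a limit set after results were seen. With 1 library per group no p-value was computed. Thinning drew UMIs at random with a fixed seed.

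Named genes were the 12 highest and 12 lowest ratios to neutrophils and the 6 highest and 6 lowest to monocytes, at 50 CPM or more and in at least 10% of the cells of the higher class, without selecting genes, unnamed gene models and mitochondrial, ribosomal and globin genes; and list members at 10 CPM or more, mostly the highest and lowest of each. Genes of the S100 and Mpo groups were picked after their values were seen. So were 5 alternatives: neutrophils low in EGFP, precursors without both Xist and Y-linked UMIs, cells with 4000 UMIs or more, and precursors below or above the S100 threshold. Alternatives were recomputed for all lists but, among genes, only for those named in the text, a restriction also made after results were seen. All-gene counts set beside a list under an alternative are at 50 CPM, above the 10 CPM minimum of the lists, so the counts do not cover the same genes. Gene positions came from the mm10 annotation, which held 30934 of 31055 features. Scrublet in scanpy 1.11.5 marked 0 doublets by its own threshold, which therefore had not worked, so doublets were kept. As an alternative the 1890 highest scores were removed, at 0.8% per 1000 barcodes. Tested on simulated counts for the neutrophil comparison with counting error alone, the 2-fold rule called 50 of 50 genes at each of 4-, 2.5-, 0.4- and 0.25-fold and 0 of 2561 unchanged genes. True ratios lay within their intervals for 95.1% of 2761 genes. TMM factors came from edgeR 4.0.16 and size factors from DESeq2 1.42.0 in R 4.3.3, and the rest from scipy 1.17.1, pandas 2.3.3 and numpy 2.4.6 in Python 3.11.15.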

Additional observations from a re-analysis of the deposited data

How the results depend on the processing

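No paired analysis was possible because each group has 1 library and no result comes from a test. Among printed ratios and list medians of at least 2-fold, those that changed direction were as follows. The log2 ratio of Hmga2 to neutrophils, -1.70, became 0.24 against neutrophils with EGFP below 3 per 10000, 0.63 with no EGFP limit and 0.21 under a stricter neutrophil rule. That of Ifi204, -1.14, became 0.0093 after thinning to 2000 UMIs and 1.01 without precursors holding mitotic UMIs, where Aurka became -1.95 and Bub1 -1.14 by construction. In Y-gene cells alone (32 precursors and 15 neutrophils) Klf4 became -0.60 and the progenitor list median -0.12, beside -0.18 for azurophil genes. Among precursors below 500 per 10000 of S100a8 and S100a9, log2 ratios to monocytes became -1.89 for Camp, -0.64 for Ngp, -1.50 for Stfa2l1 and -0.46 for the specific granule median. Among those at 500 or more, Manf became -0.0074 against monocytes, and against neutrophils Bst2 became -0.26, Cd34 -0.28, Nop2 -0.80 and the progenitor median -0.020. Of 14 list medians under 2-fold, 9 changed sign under some alternative, as did 23 of 32 such gene ratios.

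Genes higher than in neutrophils, 731, numbered 426 with DESeq2 size factors, 432 with TMM, 386 with totals without the selecting genes, 335 in cells with 4000 UMIs or more, 263 without mitotic precursors, 107 in precursors with high S100a8 and S100a9, 1159 without the highest doublet scores, 1517 under the stricter neutrophil rule, 1645 at 10 CPM and 2403 with no minimum. Genes lower, 251, numbered 388, 385 and 478 under the 3 scalings, 434 under the stricter rule, 592 in Y-gene cells, 654 at 10 CPM and 1332 with no minimum. Against monocytes, 271 higher became 102 without mitotic precursors, 778 at 10 CPM and 1171 with no minimum. In Y-gene cells, which were only 32 precursors and 7 monocytes, 545 were higher. The 351 lower became 574 after thinning, 631 in precursors with high S100a8 and S100a9, 934 in Y-gene cells, 891 at 10 CPM and 1326 with no minimum. The cause was not tested, and the mitotic filter was applied to precursors only. Of the 36 ratios of named genes, those of Itga1, Nrg1 and Myb lost 2-fold in Y-gene cells, where 2 others had no value, Mogs in precursors with high S100a8 and S100a9 and Camp in those with low; the other alternatives ended none.

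The mitotic share of precursors, 64.0%, was 45.2% at 1000 UMIs, 77.9% at 4000, 83.2% unthinned and 57.2% by replication genes. The precursor share of the library, 3.09%, was 2.28% at 20 per 10000 with 2 genes detected and 2.76% of all deposited barcodes. Low counts limit genes such as Egfl7 and Prss57 in the smaller classes, and 96 monocytes limit every ratio to them.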
